A study of Homo sapiens with 8 samples.

Results

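The 10 genes described here encode the upstream parts of the integrated stress response and of the sensors of endoplasmic reticulum (ER) stress. They are the eIF2alpha kinases EIF2AK1, EIF2AK2, EIF2AK3 and EIF2AK4, their substrate EIF2S1, the transcription factor ATF4, the phosphatase subunits PPP1R15A and PPP1R15B, and the ER sensors ERN1 and ATF6. They were chosen by gene name: all 10 are among the 16295 listed genes, and all 10 passed the filter on low counts that left 14164 genes for testing. RNA came from MM1.S, an established human plasma-cell line from multiple myeloma, in 2 libraries per group and 8 in all. One group received DMSO for 24 h, and the other 3 received MS177, MS177N1 or C24 at 0.5 uM for 24 h, with no genetic change stated for any group. From background knowledge, MS177 joins a part that binds the histone methyltransferase EZH2, derived from the inhibitor C24, to a ligand of the ubiquitin ligase receptor CRBN, and MS177N1 is a related control compound that does not degrade EZH2.

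As background, cells answer several kinds of stress by phosphorylating eIF2alpha, the regulatory subunit of the initiation factor that brings the first tRNA to the ribosome. Each kinase has its own trigger: EIF2AK1 (HRI) responds to heme shortage and mitochondrial stress, EIF2AK2 (PKR) to double-stranded RNA, EIF2AK3 (PERK) to unfolded proteins in the ER, and EIF2AK4 (GCN2) to uncharged tRNA. Phosphorylated eIF2alpha blocks its exchange factor eIF2B, so most translation slows while the ATF4 message is translated better, and PPP1R15A (GADD34) or PPP1R15B (CReP) then bring protein phosphatase 1 back to eIF2alpha. ERN1 (IRE1alpha) and ATF6 are the other sensors of ER stress. ERN1 splices the XBP1 message, and ATF6 is cut in the Golgi to release a transcription factor. Plasma cells secrete large amounts of antibody and rely on the branch of ERN1 and XBP1 for it. RNA-seq measures the messages only, and phosphorylation, splicing of XBP1 and cleavage of ATF6 were not measured here.

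Each library held between 20000665 and 26619099 reads in listed genes. Whether replicates came from separate cultures is not stated, and the p-values rest on a spread between libraries that may be technical. Of 11 plasma-cell markers, 10 lay above 1000 normalized reads in every library, whereas the B-lineage gene CD79A stayed between 18.7 and 33.6. The summed plasma-cell markers were between 127300 and 129600 with MS177 and between 203300 and 208200 in the other 6 libraries. Against DMSO 8 of 11 markers were lower and 1 higher, where 29.0% of all tested genes were lower and 28.9% higher. The sizes were uneven: IGJ, the largest in the other libraries, was at 34600 and 34220 with MS177 and 79840 to 91020 elsewhere. SLAMF7 was at 7135 and 7346 against 8126 to 8449, CD38 at 1155 and 1328 against 1140 to 1337, and XBP1 was not lower. The 6 of 9 monocyte and granulocyte markers that were listed summed to between 1592 and 1729 with MS177 and between 300.5 and 377.8 elsewhere, mostly from CD68, while CSF1R was at most 3.74. Within that list CD163 was at 24.3 and 24.7 with MS177 and at most 0.961 elsewhere, and AIF1 at 42.1 and 51.4 against at most 3.30. Of 9 T and NK cell markers 3 were listed, with sums of 38.4 to 47.2 with MS177 and 75.3 to 109 elsewhere, and the 8 stromal and epithelial markers, mostly VIM, summed to 5157 to 5451 against 5795 to 6637. Of 5 erythroid markers HBB alone was listed, at most 25.5. Their part in the results below was not tested, and in bulk RNA fewer cells of a type and less RNA per cell cannot be told apart.

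RefSeq promoter windows (GRCh38.p14, 250 bases before to 50 bases from the start site, 35116 windows in all) were found for 9 of the 10 genes. The letters TGACGTCA of the cyclic AMP response element, which ATF-family factors can bind, occurred in the PPP1R15A window at -58 to -51, counted from 0 at the start site. Of all windows 1.85% held them. The letters TGATGNAA of the C/EBP-ATF response element, the kind of site at which ATF4 pairs with C/EBP factors, occurred in the PPP1R15B window at -227 to -220, as in 3.62% of all windows. The core GAAANNGAA of the interferon-stimulated response element lay across the start site of EIF2AK2 (8.11% of all windows). The unfolded protein response element TGACGTGG (0.729% of windows) and the longer ER stress response element (0.0769%) were in no window of the 9 genes. Both strands were searched, and a match is a description of letters, not of binding. The 250 bases before the start are shown for both phosphatase subunits and, as the other genes with large changes, for ATF4 and ERN1. Capitals mark the matched letters, and the latter pair holds none.
PPP1R15A (chr19:48872171-48872420, plus strand): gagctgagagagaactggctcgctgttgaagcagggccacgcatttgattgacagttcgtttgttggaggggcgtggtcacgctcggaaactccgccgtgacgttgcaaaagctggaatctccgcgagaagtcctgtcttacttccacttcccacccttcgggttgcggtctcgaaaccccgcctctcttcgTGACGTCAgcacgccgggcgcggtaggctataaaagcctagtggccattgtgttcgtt
PPP1R15B (chr1:204411818-204412067, minus strand): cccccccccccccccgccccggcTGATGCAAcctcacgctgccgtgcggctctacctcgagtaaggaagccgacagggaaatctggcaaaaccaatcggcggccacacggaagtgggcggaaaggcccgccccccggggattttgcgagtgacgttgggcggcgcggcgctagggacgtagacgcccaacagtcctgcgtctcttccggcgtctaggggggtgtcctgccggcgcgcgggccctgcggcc
ATF4 (chr22:39520309-39520558, plus strand): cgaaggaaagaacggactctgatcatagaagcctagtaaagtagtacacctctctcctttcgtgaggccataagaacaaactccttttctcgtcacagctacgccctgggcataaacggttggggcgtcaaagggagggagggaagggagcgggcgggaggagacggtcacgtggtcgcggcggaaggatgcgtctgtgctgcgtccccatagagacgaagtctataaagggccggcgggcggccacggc
ERN1 (chr17:64130145-64130394, minus strand): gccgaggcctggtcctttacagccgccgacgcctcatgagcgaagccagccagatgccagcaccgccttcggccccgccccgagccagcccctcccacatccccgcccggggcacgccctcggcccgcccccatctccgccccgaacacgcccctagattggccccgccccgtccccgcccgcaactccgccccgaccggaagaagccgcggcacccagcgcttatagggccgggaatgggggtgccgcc

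With MS177, 9 of the 10 genes differed from DMSO (limma, Benjamini-Hochberg adjusted p under 0.05), 6 higher and 3 lower. Over all tested genes 57.9% were called, 28.9% as higher and 29.0% as lower, so a call alone says little about these genes. The share of all tested genes whose MS177 libraries lay apart from the others is not given, so separation of libraries says little either. The sizes differed widely: log2 fold changes ran from -0.35 for EIF2S1 to 2.95 for PPP1R15A, with a median of 0.59 against 0.00 over all tested genes. The genes that rose were EIF2AK3, EIF2AK4, ATF4, PPP1R15A, PPP1R15B and ERN1, those that fell were EIF2AK1, EIF2AK2 and EIF2S1, and ATF6 was not called. The 6 rises and the fall of EIF2S1 were called under all 20 alternative settings tried, whereas the calls of EIF2AK1 and EIF2AK2 were lost under several.

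**Figure D1:**
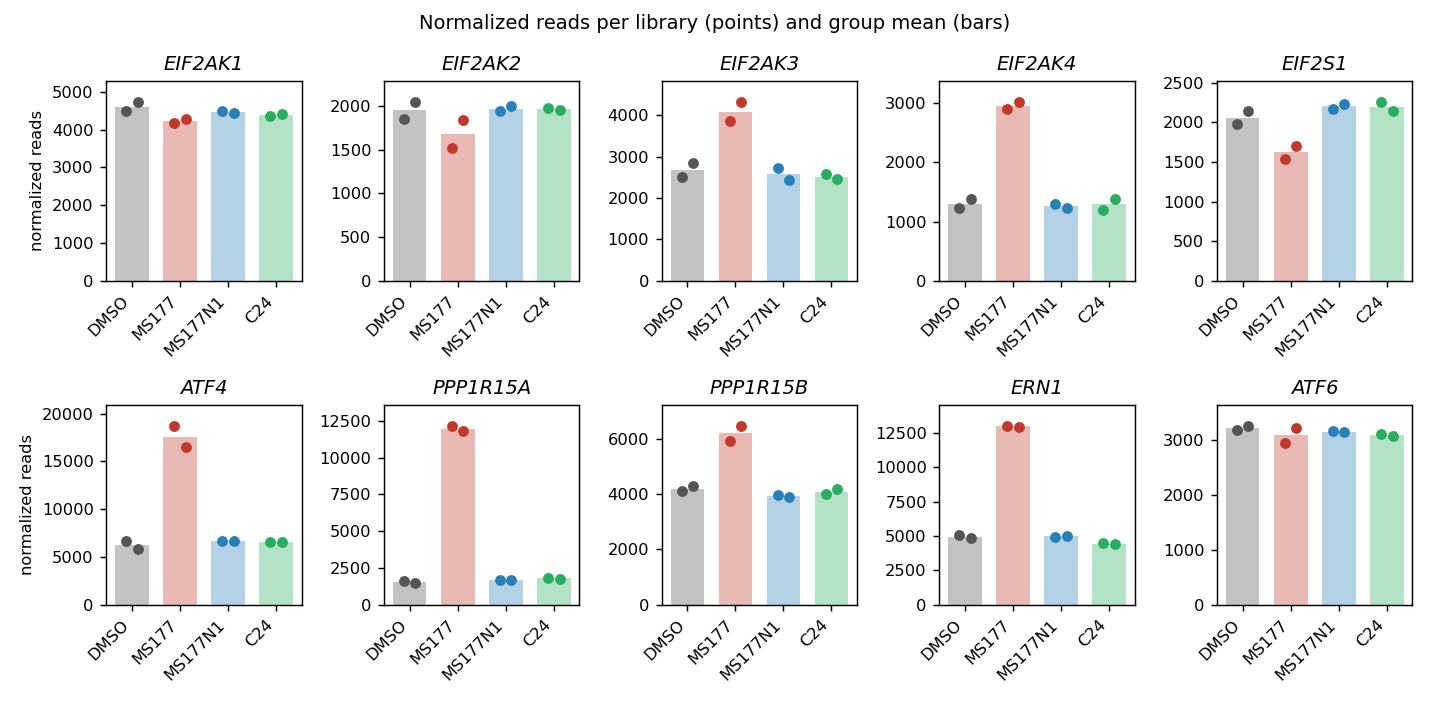
Normalized reads (y axis, linear from 0, own scale for each gene) of the 10 genes in the 4 groups (x axis). Points are libraries and bars are means of 2. For EIF2AK3, EIF2AK4, ATF4, PPP1R15A, PPP1R15B and ERN1 both MS177 libraries lie above the other 6. For EIF2S1 both lie below, as they do, by a narrow margin, for EIF2AK1 and EIF2AK2. The share of all tested genes with such a separation is not given, so separation alone says little.

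Among the kinases, EIF2AK4 rose most with MS177. Normalized reads of EIF2AK4 were 1232 and 1374 under DMSO, 2894 and 3005 under MS177, 1294 and 1221 under MS177N1, and 1196 and 1385 under C24. The MS177 libraries thus stood apart from all others, at 2.27-fold the DMSO level (log2 fold change 1.18, SE 0.08, 95% interval 1.02 to 1.35, limma adjusted p = 3.64e-09). Normalized reads of EIF2AK3, the kinase in the ER membrane, were 2503 and 2856 under DMSO, 3861 and 4306 under MS177, 2716 and 2438 under MS177N1, and 2570 and 2454 under C24. It rose 1.52-fold (0.61, SE 0.07, interval 0.45 to 0.77, limma adjusted p = 5.02e-06). The annotated antisense transcript AC104134.1, which was not among the tested genes, shares 781 exon bases with EIF2AK3. A second, AC062029.1, shares 38 exon bases with EIF2AK3 and, like EIF2AK3, rose, from a mean of 19.1 to 59.9 normalized reads. The kit named in the labels is, as background, not strand-specific, so reads in such shared bases cannot be assigned.

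The other pair of kinases was slightly lower with MS177. Normalized reads of EIF2AK1 were 4499 and 4718 under DMSO, 4185 and 4291 under MS177, 4501 and 4427 under MS177N1, and 4356 and 4413 under C24. The difference from DMSO was small (log2 fold change -0.12, SE 0.05, limma adjusted p = 0.0413), and the call was lost under 10 of 20 settings. Its values were -0.09 without DMSO replicate 2 and -0.10 without MS177 replicate 1. They stayed at -0.12 without any one of the MS177N1 or C24 libraries, with limma adjusted p between 0.066 and 0.0722. EIF2AK1 shares 532 exon bases with AIMP2 on the opposite strand, and AIMP2 was lower too (-0.38, SE 0.07). Normalized reads of EIF2AK2 were 1855 and 2038 under DMSO, 1523 and 1836 under MS177, 1942 and 1995 under MS177N1, and 1974 and 1950 under C24. One MS177 library was thus close to the lower DMSO library (-0.22, SE 0.08, limma adjusted p = 0.0267). Without MS177 replicate 1 the difference was -0.08 and without DMSO replicate 2 it was -0.15, and neither was called.

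EIF2S1, the substrate of all the kinases, fell with MS177. Normalized reads of EIF2S1 were 1977 and 2142 under DMSO, 1539 and 1698 under MS177, 2165 and 2231 under MS177N1, and 2249 and 2146 under C24. The MS177 libraries were the lowest, at a 1.27-fold lower level than DMSO (log2 fold change -0.35, SE 0.07, interval -0.49 to -0.21, limma adjusted p = 0.000277). The opposite-strand gene ATP6V1D shares 269 exon bases with EIF2S1 and was slightly higher (0.21, SE 0.08).

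ATF4, the transcription factor made when eIF2alpha is phosphorylated, rose 2.81-fold at the RNA level. Normalized reads of ATF4 were 6691 and 5820 under DMSO, 18690 and 16454 under MS177, 6624 and 6635 under MS177N1, and 6517 and 6509 under C24. Both MS177 libraries lay far above the other 6, among which the DMSO libraries were the most spread (1.49, SE 0.07, interval 1.35 to 1.63, limma adjusted p = 4.87e-10). The annotation holds 4 pseudogenes of ATF4, none of them listed in the table, and how reads from near-identical copies were counted is not given in the sources used here.

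PPP1R15A, the stress-inducible phosphatase subunit, had the largest change of the 10 genes. Normalized reads of PPP1R15A were 1634 and 1473 under DMSO, 12139 and 11781 under MS177, 1652 and 1644 under MS177N1, and 1832 and 1746 under C24. The rise with MS177 was 7.70-fold (log2 fold change 2.95, SE 0.06, interval 2.82 to 3.07, limma adjusted p = 6.78e-15), and 98.3% of tested genes had the same or a lower log2 fold change. Normalized reads of PPP1R15B, the constitutive subunit, were 4101 and 4293 under DMSO, 5946 and 6469 under MS177, 3987 and 3913 under MS177N1, and 3994 and 4173 under C24. It rose 1.48-fold (0.56, SE 0.05, interval 0.45 to 0.68, limma adjusted p = 2.12e-07). The promoter windows shown above held the cyclic AMP response element letters for the first and the C/EBP-ATF letters for the second. Their part in the rises was not tested, and the windows of EIF2AK3, EIF2AK4, ATF4 and ERN1, which also rose, held no match.

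Of the ER sensors, ERN1 rose with MS177 and ATF6 was not called. Normalized reads of ERN1 were 5078 and 4849 under DMSO, 13016 and 12989 under MS177, 4920 and 5015 under MS177N1, and 4510 and 4393 under C24. It rose 2.62-fold with MS177 (log2 fold change 1.39, SE 0.05, interval 1.29 to 1.49, limma adjusted p = 1.82e-12), and 25 of the 14164 genes had a smaller p. Normalized reads of ATF6 were 3195 and 3261 under DMSO, 2957 and 3234 under MS177, 3165 and 3151 under MS177N1, and 3116 and 3079 under C24. The MS177 and DMSO libraries overlapped, and no change was called (-0.06, SE 0.05, interval -0.18 to 0.05, limma adjusted p = 0.351). When trends with GC content and transcript length were removed, an alternative chosen after the data were seen, ATF6 was lower (-0.23, limma adjusted p = 0.000104).

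**Figure D2:**
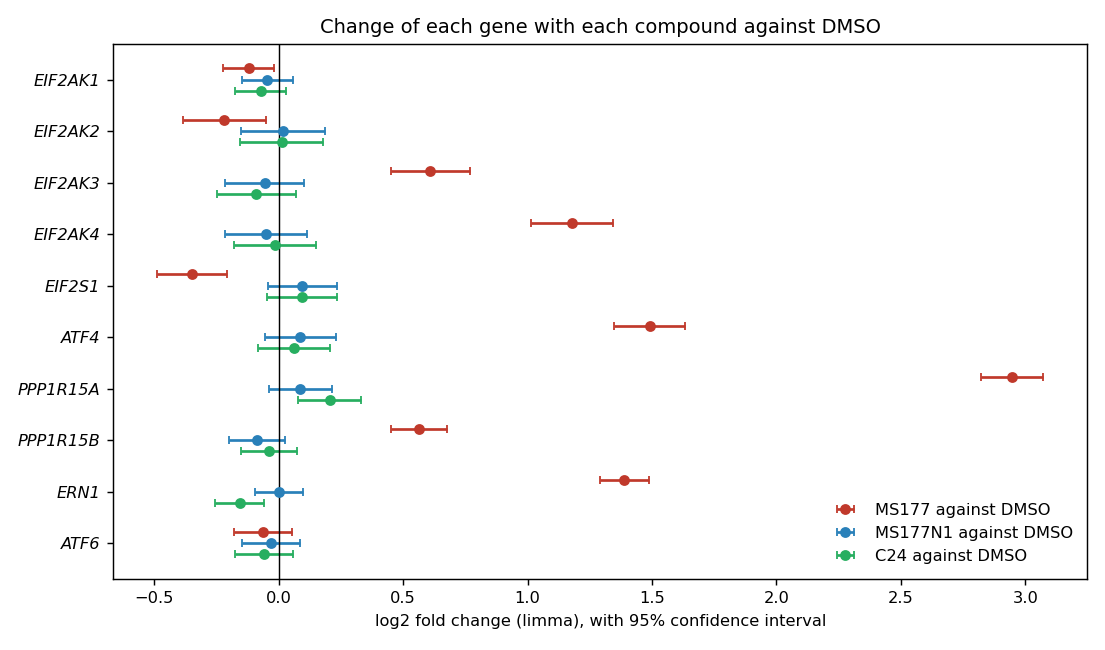
Log2 fold change (x axis) of each of the 10 genes (y axis) with MS177, MS177N1 and C24 against DMSO. Points are limma estimates and bars are 95% confidence intervals. MS177 intervals lie right of 0 for 6 genes and reach 3.07 for PPP1R15A, while those of MS177N1 all include 0.

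At the same dose and time, neither related compound gave a called change. For MS177N1 against DMSO limma called 0 of the 10 genes, and 0 had an unadjusted p under 0.05. Over all genes 0.0353% were called and 5.07% had such an unadjusted p, and limma with voom weights also called 0 of the 10. All intervals lay within -0.21 to 0.23 on the log2 scale. For C24 against DMSO limma called 0 of the 10 as well (0.0918% over all genes, 0 of the 10 with voom weights), and 2 had an unadjusted p under 0.05 (5.38% over all genes). These were PPP1R15A (0.21, SE 0.06, interval 0.08 to 0.33, limma adjusted p = 0.604) and ERN1 (-0.16, SE 0.05, interval -0.25 to -0.06, limma adjusted p = 0.604). In both genes the C24 libraries did not overlap with those of DMSO, but such separation alone says little with 2 libraries per group. It was also seen for EIF2AK1, EIF2S1 and ATF6, with limma unadjusted p of 0.156, 0.17 and 0.292.

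The compounds were also compared with each other, in 3 pairs. MS177 against MS177N1 gave 8 called genes, 6 higher and 2 lower (57.4% called over all genes, 28.8% higher and 28.6% lower), and MS177 against C24 gave the same numbers (58.1%, 29.1% higher and 29.0% lower). These comparisons share the MS177 libraries with each other and with the comparison with DMSO. PPP1R15A was 7.25-fold higher with MS177 than with MS177N1 (log2 fold change 2.86, SE 0.06, limma adjusted p = 1.01e-14) and 6.68-fold higher than with C24 (2.74, SE 0.06, limma adjusted p = 1.23e-14). ATF4 was 2.65-fold and 2.69-fold higher, ERN1 2.62-fold and 2.92-fold, and EIF2AK4 2.35-fold and 2.29-fold. EIF2AK3 was 1.58-fold and 1.62-fold higher and PPP1R15B 1.57-fold and 1.52-fold. EIF2S1 was lower by -0.44 on the log2 scale in both comparisons, and EIF2AK2 by -0.24 and -0.23. The EIF2AK2 calls were lost without MS177 replicate 1, at -0.10 against each compound. They were also lost without either library of the compound compared, at -0.25 without MS177N1 replicate 1, -0.22 without MS177N1 replicate 2, -0.22 without C24 replicate 1 and -0.24 without C24 replicate 2. EIF2AK1 and ATF6 were not called in either. Between MS177N1 and C24 limma called 0 of the 10 (0.0141% over all genes, 0 of the 10 with voom weights) and 1 had an unadjusted p under 0.05 (4.48% over all genes), ERN1 (0.16 higher with MS177N1, interval 0.06 to 0.26, limma adjusted p = 0.997). The intervals of the 10 differences lay within -0.24 to 0.26.

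Levels of different genes were compared per kilobase (kb) of coding length from GENCODE 29. On that scale ATF4 was the highest of the 10 in DMSO, at 5941 ± 585 normalized reads per kb (SD, n = 2), followed by EIF2AK1 (2438 ± 81.6), EIF2S1 (2179 ± 124), PPP1R15B (1962 ± 63.4), ERN1 (1694 ± 55.3) and ATF6 (1606 ± 23.2). EIF2AK2 (1178 ± 78.5), EIF2AK3 (800.3 ± 74.7), PPP1R15A (768.4 ± 56.5) and EIF2AK4 (263.3 ± 20.3) were lower. The neighbours EIF2AK3 and PPP1R15A differed by less than the SD of either. With MS177, PPP1R15A moved from ninth to the second place, at 5915 ± 125 per kb, behind ATF4 at 16687 ± 1502, followed by ERN1 at 4436 ± 6.49. EIF2AK4 stayed the lowest at 596.3 ± 15.8. Per kb of the longest coding transcript, ATF4, PPP1R15A and ERN1 also took the first places in that order with MS177, but PPP1R15A was in the fourth place in DMSO, a smaller move than by coding length, and EIF2AK2, which has a very long annotated transcript, was the lowest in each of DMSO and MS177.

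The shares of the kinase messages in the MS177 libraries did not overlap with those in the other libraries. Per kb of coding length, EIF2AK4 made up 11.5% and 12% of the summed kinase level in the MS177 libraries and 5.36% to 6.18% in the other 6, and EIF2AK3 made up 23.7% and 24.4% against 16.1% to 17.6%. Per kb of transcript the shares were 20.9% and 21.5% against 11.2% to 12.8% for EIF2AK4, and 34.0% and 35.4% against 26.9% to 29.0% for EIF2AK3. EIF2AK1 remained the most abundant kinase message per kb, at 43.0% and 45.4% against 51.1% to 52.9%. The ratio of PPP1R15A to PPP1R15B per kb of coding length was 2.16 and 1.93 with MS177 and between 0.363 and 0.485 in the other 6 libraries. On this scale the inducible subunit was the more abundant with MS177 and the constitutive one in the other libraries. Per kb of transcript the ratio was 4.49 and 4.0 with MS177 and 0.754 to 1.01 elsewhere.

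**Figure D3:**
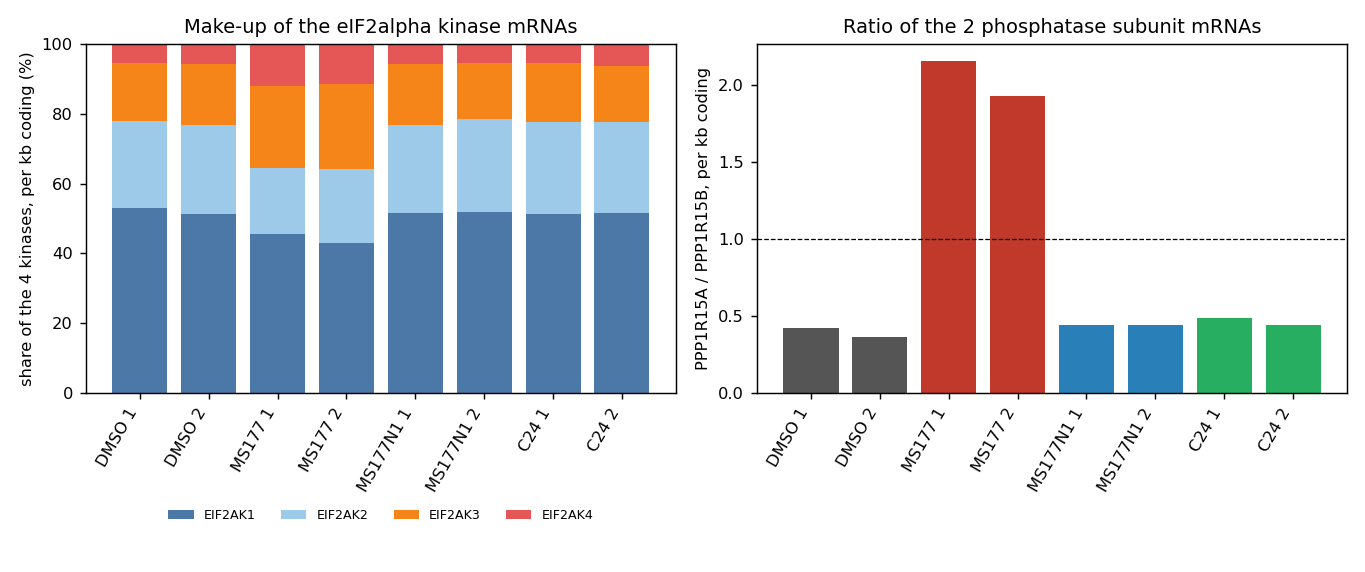
Left, share (y axis, %) of each eIF2alpha kinase message in the sum of the 4 kinases, per kb of coding length, in each of the 8 libraries (x axis). Right, ratio of PPP1R15A to PPP1R15B per kb of coding length in the same libraries, with a dashed line at 1; only the MS177 libraries, at 2.16 and 1.93, lie above it.

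Among 10242 genes with a mean of at least 100 normalized reads, those with the most similar pattern over the 8 libraries were sought by the root-mean-square (RMS) difference in log2 level from the DMSO mean. The 3 closest to ATF4 were RGS3, a regulator of G protein signalling (RMS difference 0.0589), PINK1, a mitochondrial kinase (0.0621), and GTPBP2, a GTPase of ribosome rescue (0.0659), with log2 fold changes of 1.49, 1.55 and 1.47 in MS177 against DMSO. The closest to PPP1R15A were ALOX5AP, an activator of leukotriene synthesis (0.0730), the AP-1 factor JUN (0.0869) and the chemokine CCL5 (0.114), with 2.90, 3.02 and 3.09.

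Other genes of the pathway were taken from 12 lists, by counts of calls in MS177 against DMSO. The list members were chosen with earlier results of these data known. Around the substrate, 3 of 9 genes of the eIF2 and eIF2B complexes rose and 3 fell (median log2 fold change -0.04). Over all tested genes 28.9% were higher and 29.0% lower, with a median of 0.00, so these counts are near the background. With the length and GC trend removed 1 rose and 4 fell (median 0.05), and the median lay between -0.15 without DMSO replicate 2 and 0.00 without DMSO replicate 1. While EIF2S1 fell, EIF2S2, the beta subunit of eIF2, rose from 5503 ± 588 to 8067 ± 442 normalized reads (SD, n = 2; 0.55, SE 0.07, limma adjusted p = 6.59e-06). EIF2S3, the gamma subunit, was at 0.27 (SE 0.08) but was not called once DMSO replicate 1 (0.17) or MS177 replicate 2 (0.13) was left out. EIF2B3, a subunit of the exchange factor, fell by 0.56 (SE 0.07; 1.47-fold lower). Of 10 tested regulators of the kinases, 3 rose and 5 fell (median -0.00). Without DMSO replicate 2 the counts were 2 and 3, and total-read scaling gave 4 higher and 3 lower. OMA1, the mitochondrial protease that passes stress to EIF2AK1 through DELE1, was 3.10-fold lower, at 127.4 ± 0.231 normalized reads against 396.7 ± 11.8 (SD, n = 2; log2 fold change -1.63, SE 0.11, limma adjusted p = 4.70e-09), and GCN1L1, the activator of EIF2AK4, fell by 0.40 (SE 0.06). TARBP2, an inhibitor of EIF2AK2, rose by 0.35 (SE 0.07). Of 5 partners of the phosphatase, 3 fell and 0 rose (median -0.18): actin, which binds PPP1R15 proteins, was lower in both genes tested, ACTB (-0.995, SE 0.04) and ACTG1 (-0.91, SE 0.03), and the catalytic subunit PPP1CA was at -0.18 (SE 0.05). The PPP1CA call was lost with total-read scaling (-0.10), and removal of the length and GC trend put the value at 0.00. Without MS177 replicate 2 all 5 partners were called lower, without MS177 replicate 1 the counts were 3 lower and 1 higher, and total-read scaling gave 2 lower (median -0.10).

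Downstream of ATF4, 33 of 35 target genes rose and 1 fell (median 1.33), where 28.9% of all tested genes were higher and 29.0% lower. CHAC1, which degrades glutathione, rose from 229.8 ± 19 to 1905 ± 173, SESN2, an inhibitor of mTORC1, rose 7.28-fold, and PCK2, the mitochondrial PEP carboxykinase, rose 6.67-fold. The exception was ALDH18A1, an enzyme of proline synthesis, which fell by 1.10 (SE 0.06). Of 14 tested partners and regulators of ATF4, 8 rose and 0 fell (median 1.46), led by the stress-induced factors ATF3 (4.21, SE 0.07), DDIT3 (4.06, SE 0.11) and JUN (3.02, SE 0.06). The median of these partners was 0.59 with the deposited log2 values, and 1.01 over the 12 partners that reached 50 reads in 2 libraries. With the related compounds, DDIT4, an ATF4 target that inhibits mTORC1, was the one listed gene called: it was 1.59-fold higher with C24 than with DMSO, at means of 4074 and 2559 normalized reads (limma adjusted p = 1.59e-05), and 1.40-fold lower with MS177N1 than with C24 (limma adjusted p = 0.00136). The call against DMSO was lost without the trend and robust options. So was that against MS177N1, which was also lost without any one of the libraries compared: the difference was -0.47 without MS177N1 replicate 1, -0.50 without MS177N1 replicate 2, -0.52 without C24 replicate 1 and -0.45 without C24 replicate 2. MS177N1 against DMSO gave 0 called genes in the lists.

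The lists below the ER sensors are read against the same 28.9% higher and 29.0% lower over all tested genes. Of 13 targets of ATF6, 11 fell and 2 rose (median -0.42), while ATF6 itself was not called. Without DMSO replicate 1 or MS177 replicate 2, 1 target was called higher. SDF2L1, an ER chaperone cofactor, was at 823.8 ± 89.8 against 2284 ± 185 (-1.47, SE 0.08, limma adjusted p = 2.94e-10), MANF, a secreted ER stress protein, fell by 0.85 (SE 0.06), and the disulfide isomerase PDIA4 fell by 0.73 (SE 0.05). HERPUD1, a membrane protein of ER-associated degradation, rose 2.86-fold, from 9407 ± 290 to 26914 ± 332 (1.52, SE 0.05, limma adjusted p = 6.09e-13). Of 11 tested relatives and processing enzymes of ATF6, 3 rose and 2 fell (median 0.15), and total-read scaling gave 7 higher. They included CREB3L4 (1.5, SE 0.11) and CREB3L2 (1.24, SE 0.06), membrane-bound factors of the same family, and MBTPS1, the protease that cuts ATF6 first, which fell by 0.62 (SE 0.07). Of 12 tested partners of ERN1, 4 rose and 4 fell (median -0.03), and 2 rose without MS177 replicate 1. MAP3K5 (ASK1), a kinase downstream of ERN1, rose 2.25-fold, from 396.1 ± 20.4 to 893.6 ± 27.1, and FAM98B, a member of the tRNA ligase complex that joins spliced XBP1, fell by 0.79 (SE 0.08). Of 16 targets of XBP1, 5 rose and 3 fell (median 0.04), with DNAJB9, an ER co-chaperone, at 0.89 (SE 0.06) and FKBP11, a prolyl isomerase of the secretory pathway, at -1.44 (SE 0.07). The counts of XBP1 targets were 7 and 2 without MS177 replicate 1, 2 lower without DMSO replicate 2, and 9 and 2 with total-read scaling.

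**Figure D4:**
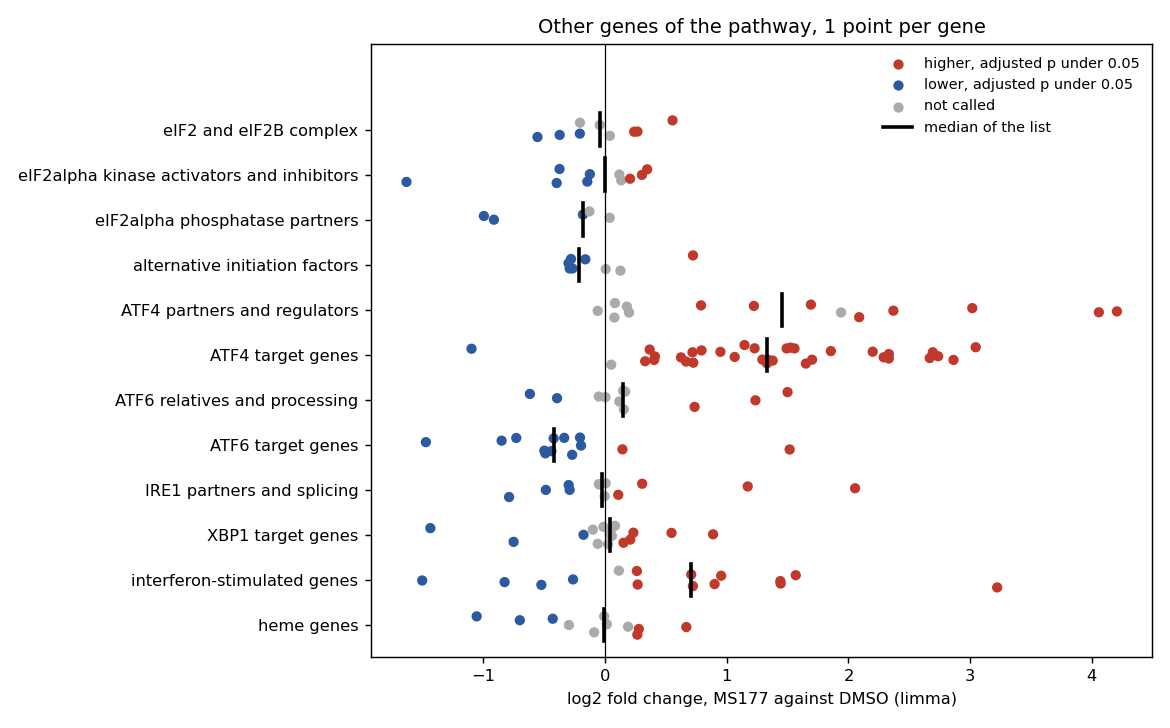
Log2 fold change in MS177 against DMSO (x axis) of the tested genes in the 12 lists (y axis), 1 point per gene, coloured by call, with the median of each list as a bar. The medians of ATF4 targets (1.33) and ATF4 partners (1.46; 0.59 with the deposited log2 values) lie right of 0. So does that of the interferon-stimulated genes (0.71, or 0.44 with the deposited values), while that of ATF6 targets (-0.42) lies left of 0. The other medians lie between -0.21 and 0.15.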

How the data were processed

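RNA-seq of 8 MM1.S libraries was analysed from 1 deposited table of log2 values for 16295 genes, named as normalized per the file headers. The submitters' processing notes list DESeq2 1.38.2, Salmon 0.1.19, STAR 2.4.2 and hg19; the role of each is not given in the sources used here. The values have the shape of a variance-stabilizing transformation with a shared minimum of 5.97 for 0 reads. Inverting it gave whole reads within 0.01 for 130360 of 130360 values, and the recovered size factors equalled median-of-ratios factors. Normalized reads are reads over these factors.

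The 14164 genes tested reached 15 reads in all and, in 2 or more libraries, 10 reads once scaled to the median library size. log2(normalized reads + 1) was fitted with limma 3.58.1 (trend and robust, statmod 1.5.0, R 4.3.3). One model held the 4 groups, and p-values of its 6 pairwise comparisons were adjusted over all tested genes by the Benjamini-Hochberg method. The fit was also run on simulated data with far fewer changed genes than were called with MS177. That run cannot show how the fit behaves under changes this widespread. Fold changes are on the log2(value + 1) scale. Alternatives changed scaling, pseudocount, filter, weights, prior, samples and the replicate block.

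The 10 genes and the lists were chosen with earlier results of these data known. From each list, named genes were drawn from the called genes with the largest change in MS177 against DMSO, up to 3 per direction. Not all of these are named in the text, and 1 result is not reported here. Lists are given by counts and medians, with no set test. Of 10 genes, 9 matched a RefSeq promoter window.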

Additional observations from a re-analysis of the deposited data

How the results depend on the processing

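Across 20 alternative settings, the 10 genes in 6 comparisons gave 1200 values, of which 1170 kept their direction where called and their side of the threshold. None turned a called direction, 25 lost a call and 5 gained one. The lost calls were all of EIF2AK1 and EIF2AK2 and the gained ones all of EIF2AK1 and ATF6. For MS177 against DMSO between 7 and 10 of the 10 genes were called. Of 162 genes in the lists, 106 to 124 were called, against 119 in the main fit. That fit called 57.9% of all tested genes, 8207 in all. This number moved with the settings too, to 8494 after removal of the GC and length trend and 7403 without the trend and robust options. With total-read scaling EIF2AK1 was at -0.04 (limma adjusted p = 0.556) and EIF2AK2 at -0.13 (0.169), and upper-quartile scaling put EIF2AK1 at -0.10 (0.0813). Both calls were also lost without the trend and robust options (limma adjusted p = 0.105 and 0.135) and with only the 2 groups compared in the fit (0.133 and 0.0909). With the GC and length trend taken out, available for 88.8% of tested genes and chosen after the data were seen, 10 of 10 genes were called. Total-read scaling also gave 7 instead of 3 ATF6 relatives and 9 instead of 5 XBP1 targets as higher, and it turned the medians of the eIF2 and eIF2B, kinase regulator, ERN1 partner and heme lists to 0.04, 0.08, 0.06 and 0.08. Differences between replicates correlated between groups at -0.062 to 0.06, so no shared effect of the replicate number was visible. Whether libraries of the same number were prepared together is not stated. With the replicate block 9 of the 10 genes were called in MS177 against DMSO, as without it, and 8299 against 8207 genes in all. With 2 libraries per group and a median SE of 0.107, small differences such as that of EIF2AK1 are at the limit of this design.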

Other observations

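Genes near the triggers of EIF2AK2 and EIF2AK1 were counted as well in MS177 against DMSO. Of 15 tested interferon-stimulated genes, a class that also includes EIF2AK2, 10 rose and 4 fell (median log2 fold change 0.71), where 28.9% of all tested genes were higher and 29.0% lower. The median was 0.44 with the deposited log2 values, 0.49 over the 14 genes that reached 50 reads in 2 libraries and 0.54 without DMSO replicate 1. IFIT3, an antiviral effector, went from 28.9 ± 6.67 to 274.8 ± 2.39 normalized reads, OAS3, a sensor of double-stranded RNA, rose 2.96-fold and the signalling factor STAT2 rose 2.72-fold. ISG15, a ubiquitin-like modifier, fell by 1.5 (SE 0.22) and MX1, an antiviral GTPase, by 0.83 (SE 0.10), the same direction as EIF2AK2 (-0.22, SE 0.08, called with limma but not without MS177 replicate 1, at -0.08, or DMSO replicate 2, at -0.15).

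Of 11 heme genes, 3 rose and 3 fell (median -0.01), near the shares over all tested genes. CPOX, an enzyme of heme synthesis, fell by 0.43 (SE 0.07) and PPOX, the enzyme after it, rose by 0.67 (SE 0.12). HMOX1, which breaks heme down, was not called (-0.30, SE 0.15, limma adjusted p = 0.0995; chosen after its values were seen). Among initiation factors outside the eIF2 complex, 1 of 8 rose and 5 fell (median -0.21), where 28.9% of all tested genes were higher and 29.0% lower. Without MS177 replicate 1 the counts were 2 and 3 (median -0.12), without DMSO replicate 2 they were 1 and 3, and total-read scaling gave 2 and 3 (median -0.13). The riser was EIF1, a factor of start codon selection, from 11451 ± 334 to 18914 ± 1161 (0.72, SE 0.05), and EIF5B and DENR fell by 0.30 (SE 0.07) and 0.29 (SE 0.08).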
